A study of Rattus norvegicus with 17 samples.

Results

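Cytosolic ribosomal proteins are the protein parts of the large and small subunits of the ribosome that works in the cytoplasm. Their 68 genes were taken by name from the array annotation: symbols of the form Rpl or Rps plus a number, the stalk proteins Rplp0, Rplp1 and Rplp2, and Rpsa, with the Rps6 kinases left out. They are 42 large subunit and 26 small subunit genes out of 14506 genes that carry a single symbol, and 249 of the 29214 probe sets read them. A gene with several probe sets was represented by the brightest of them, judged by its mean. Rpl3l, Rps27l and Rps27a had no probe set with a single symbol here and are not analysed.

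RNA came from heart ventricle myocytes of neonatal rats (Sprague-Dawley) in cultures 5 days old. Uremic plasma (10%), the plasma of kidney failure, was taken before nocturnal hemodialysis (NHD, long overnight dialysis; 6 arrays) or after it (6 arrays). The other groups received control plasma (3 arrays) or phenylephrine, an alpha-adrenergic agonist used to make cultured myocytes grow (2 arrays). The share of control plasma and the medium of the phenylephrine cultures are not given, the labels name no genotype, dose or batch, and they call the replicates biological without saying whether these were separate cultures or plasma donors, so the p-values measure only the spread between these samples. One RNA sample was read per array, as log2 values normalised by RMA, and the small number of arrays limits precision.

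A ribosome needs a copy of nearly every ribosomal protein, and cells make these proteins in step with each other and with ribosomal RNA. Their messages belong to the TOP class: transcription starts at a C followed by a run of pyrimidines, and the kinase mTOR sets, through that tract, how well they are translated. In heart muscle cells, ribosome production is part of the growth response to stimuli such as alpha-adrenergic agonists. An array reads the amount of a message and not its translation.

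The TOP tract can be seen at the annotated starts of some genes whose messages differed between groups below, but not in the windows of Rpl24, Rpl3 and Rpl36. The windows are 30 bases of the RefSeq promoter table (build GRCr8), 10 before the annotated start and 20 from it on, written 5′ to 3′ on the gene's strand. The first bases of each message are part of the 5′ untranslated region. Capitals mark the tract, a C with at least 4 further C or T that begins within 10 bases of the start. Only the longest such run of a window is marked, so shorter ones can stand in small letters. They are shown for genes that were lower after NHD (Rpl19, Rps18, Rps7, Rps3a, Rpl10a and Rpl24) and for genes that were higher (Rpl22, Rpl35a, Rpl3 and Rpl36).
Rpl19 (chr10:83519054-83519083, plus strand): ccagcaagCTCTTTCCTTTCgctgctgcgt
Rps18 (chr20:4933735-4933764, plus strand): cacttccgCTCTCTCTTCCacaggaggcct
Rps7 (chr6:50999426-50999455, minus strand): agagctgtgtCTCTTTCTaagccggcactc
Rps3a (chr2:173827023-173827052, minus strand): gtacttccgCCCTTTTggctctcagagcgg
Rpl10a (chr20:6390523-6390552, plus strand): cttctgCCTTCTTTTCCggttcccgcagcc
Rpl24 (chr11:58128386-58128415, minus strand): tagggaggagattctctaccctataaggtg
Rpl22 (chr5:168117951-168117980, plus strand): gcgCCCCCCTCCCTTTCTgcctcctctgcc
Rpl35a (chr11:81235002-81235031, minus strand): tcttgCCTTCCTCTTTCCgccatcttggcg
Rpl3 (chr7:113507971-113508000, minus strand): gcctgctcgatctctatcggcggcgtgtgg
Rpl36 (chr9:1533770-1533799, plus strand): cggccgccatcggaaagctgcaggtaagtc
The table held 58 of the 68 genes, and 44 of these (75.9%) had such a tract, against 28.9% of all 33469 promoters. Only the gene's own strand was searched, and where no tract is marked these letters are merely absent from the window around the annotated start. A tract was found in 2 of the 4 genes with a window that were higher after NHD than with control plasma, and in 8 of the 10 that were lower. Of the genes not called, 34 of 44 had one, and whether these shares differ was not tested. In the whole 300 bases, searched on both strands, the core of the ETS factor motif (CCGGAAG) occurred in 18 of the 58 (31.0%, against 8.75% of all promoters). The TATA box (TATAAA) occurred in 6 (10.3% against 14.2%). Neither motif contains the other.

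The probe sets of these genes read bright. The median member had a mean of 11.81 on the log2 scale over all arrays, against 7.67 for the median gene, and 51 of the 68 lay above the 90th percentile of gene means. Rps27 and Rpl15 read lowest, with means of 6.31 and 8.10 at the 29.8th and 56.0th percentiles of gene means. Rps15a (9.36, 74.5th percentile) and Rpl22 (9.38, 74.7th percentile) came next. Rps27 read 6.14 to 6.43 with control plasma, 6.13 to 6.54 before NHD, 6.05 to 6.49 after NHD, and 6.004 and 6.548 with phenylephrine, so that all groups overlapped. At the other end, 9 members reached within 1 log2 unit of the highest value in the table (14.29): Rpl10, Rpl18, Rpl28, Rpl32, Rplp2, Rps2, Rps20, Rps29 and Rps4x. Of all member values 8.56% lay in that zone, against 0.294% of the values of all genes. Array signals can saturate toward the top of their scale. The 9 genes near it had differences from control plasma after NHD between -0.13 and 0.18, and none of these 9 probe sets passed the test in any comparison. A second probe set of Rpl10, with a mean of 11.01, was called higher with phenylephrine (0.63 ± 0.17, adjusted p = 0.0184), where the one near the top differed by 0.26 ± 0.14 (adjusted p = 0.215). No other probe set of these 9 genes was called with phenylephrine. Among them were dimmer ones of Rpl28 (mean 10.08, 0.069 ± 0.105) and Rps2 (mean 11.97, -0.222 ± 0.123). Whether the top of the scale hid changes was not tested. Values of different probe sets are not compared as amounts of message.

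The arrays were unequal, and this touches each result. The SD of the median member was 0.156 log2 units before NHD, 0.0641 after, 0.0422 for control plasma and 0.021 for phenylephrine. Before NHD replicate 1 stood apart in these genes. It held the lowest value of its group for 49 of the 68 members (72.1%), against 13.8% of all genes, and its median difference from the control mean was -0.291 over the members, with the other 5 arrays at -0.111 to 0.036. The SD of all values of an array was 2.244 to 2.269 in before NHD replicates 1 and 5 and in control replicates 1 and 3, and 2.293 to 2.370 on the others. Cardiomyocyte markers (14 of 14 measured) averaged 12.57 to 12.58 with control plasma, 12.60 to 13.04 before NHD, 12.98 to 13.14 after NHD and 12.92 to 12.93 with phenylephrine. Against control plasma, 3 of the 14 were called higher before NHD (21.4%, all genes 3.75%) and 8 after NHD (57.1%, all genes 16.7%). With phenylephrine 4 were (28.6%, all genes 11.7%), and 0 were called lower in any of these. Smooth muscle markers (5 of 5) averaged 11.76 to 12.01 with control plasma and 11.26 to 12.11 before NHD. They lay lower after NHD (11.11 to 11.73) and with phenylephrine (11.38 to 11.51), with 1 of the 5 genes called lower in each. With phenylephrine, endothelial markers (5 of 6) averaged 7.07 to 7.11 and leukocyte markers (7 of 8) 6.41 to 6.53, above the control arrays at 6.39 to 6.62 and 6.09 to 6.15. There 2 of the 5 endothelial and 0 of the 7 leukocyte genes were called higher. After NHD both overlapped the control arrays. Fibroblast markers (10 of 10) averaged 8.54 to 8.67 with control plasma, 7.61 to 10.05 before NHD, 7.84 to 10.00 after NHD and 10.09 to 10.31 with phenylephrine. Of the 10, 1 was called higher after NHD and 1 with phenylephrine, each against control plasma. The part of these cell types in the results below was not tested. Fewer cells of a type and less RNA per cell cannot be told apart in such bulk samples.

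**Figure D1:**
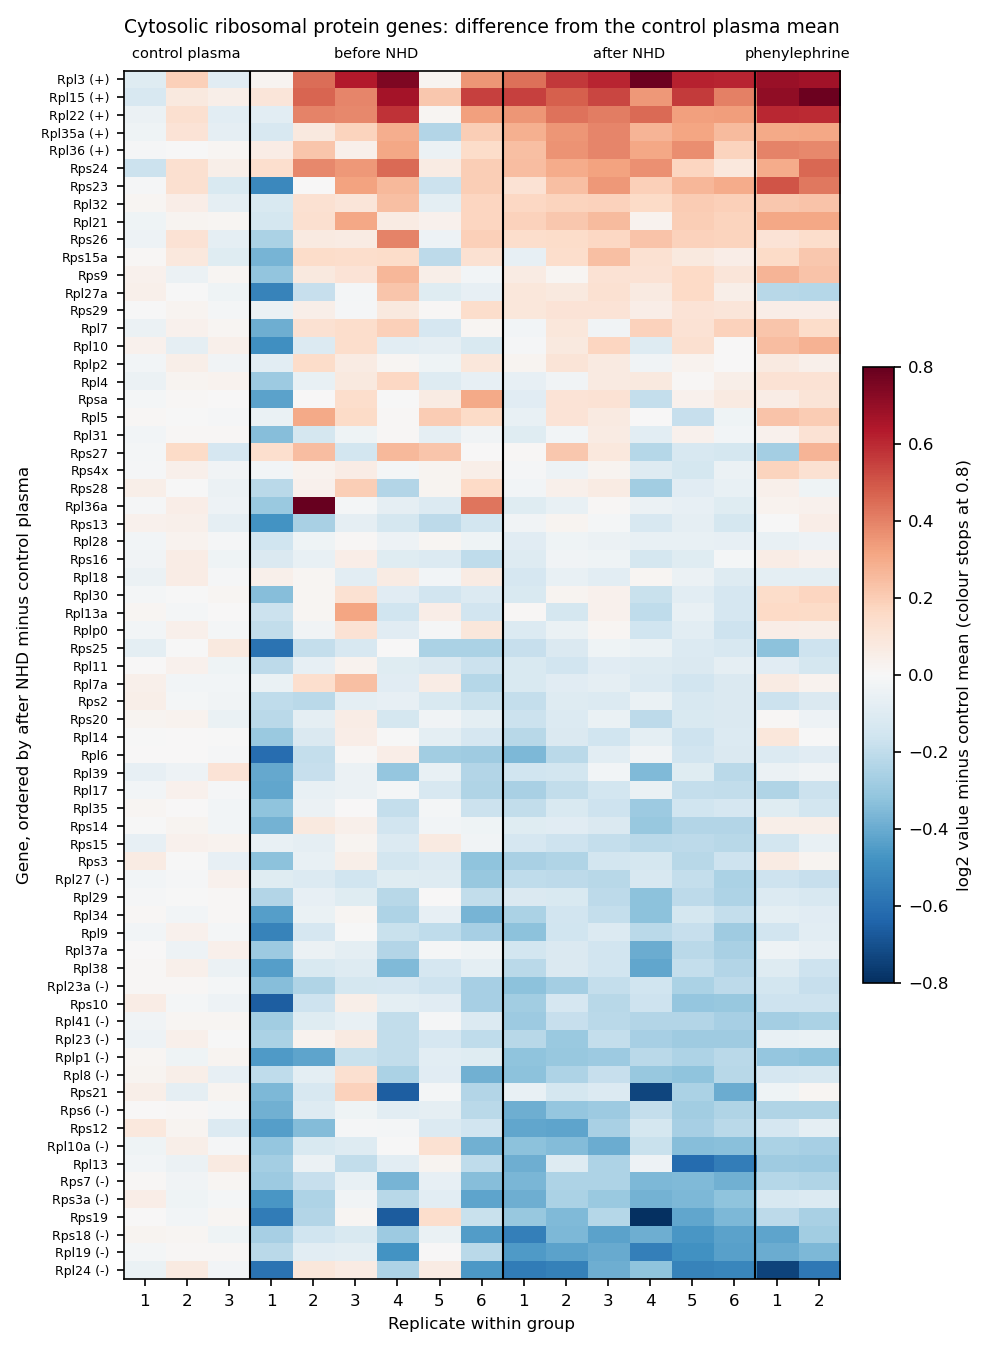
Each row is a gene and each column an array. Colour gives the log2 value minus the mean of the 3 control plasma arrays, from blue (lower) to red (higher), and a plus or minus sign after the name marks the 18 genes called in after NHD against control plasma. Before NHD replicate 1 is blue in most rows, and the top and bottom rows keep 1 colour over all after NHD and phenylephrine arrays.

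Plasma taken after NHD was compared with control plasma to see what set the messages apart from those of control cultures. Of the 68 genes, 18 passed the test (limma, Benjamini-Hochberg adjusted p under 0.05 over all probe sets): 5 were higher and 13 lower with after NHD plasma. That is 26.5% of the members. Of all probe sets 28.2% passed, and of all genes, counted like the members with 1 probe set each, 33.0%, so the members were called no more often than the rest. At an unadjusted p under 0.05 there were 29 members (42.6%), against 39.5% of all probe sets and 44.5% of all genes. Called higher were 5 of 68, with a background of 12.9% of probe sets (16.7% of genes), and called lower 13 of 68, with a background of 15.3% (16.3% of genes). The changes were small. The median size of a difference was 0.178 log2 units over the members, against 0.28 over all genes, and the median difference was -0.11, against -0.066. Only Rpl3 changed by 1.5-fold or more.

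The genes that rose were all of the large subunit. Rpl3, a core protein beside the site where peptide bonds form, had the largest rise. It read 11.40, 11.69 and 11.41 on the control arrays, and 11.94 to 12.28 with a median of 12.11 after NHD. Every after NHD array lay above every control array, and Rpl3 rose by 0.60 ± 0.15 log2 units (SE; adjusted p = 0.00629), a factor of 1.52. Rpl15, also a large subunit protein, read 7.58, 7.79 and 7.75 with control plasma and 8.06 to 8.27 (median 8.21) after NHD. The groups did not overlap and the rise was 0.48 ± 0.11 (adjusted p = 0.00525).

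Rpl22, a protein of the ribosome's surface with a known paralog (Rpl22l1), read 9.03, 9.20 and 8.99 with control plasma and 9.41 to 9.53 (median 9.46) after NHD, a rise of 0.39 ± 0.12. Its paralog Rpl22l1, which the naming rule leaves out, had a difference of 0.28 ± 0.14 and did not pass (adjusted p = 0.148). Rpl35a read 11.42 to 11.60 on the 3 control arrays and 11.75 to 11.88 after NHD, and rose by 0.31 ± 0.11 (adjusted p = 0.0371). Rpl36 read 10.63, 10.63 and 10.66 with control plasma and 10.82 to 11.03 (median 10.97) after NHD, and rose by 0.31 ± 0.09. In each of these 3 genes the lowest after NHD array lay above the highest control array.

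Among the 13 genes that fell, Rpl24 and Rpl19, which both help to bridge the subunits, had the largest decreases. Rpl24 read 9.81, 9.94 and 9.84 with control plasma and 9.31 to 9.54 (median 9.34) after NHD, and fell by 0.48 ± 0.14 log2 units (adjusted p = 0.0187). Rpl19 read 13.18, 13.21 and 13.21 with control plasma and 12.65 to 12.80 (median 12.76) after NHD, and fell by 0.46 ± 0.09 (adjusted p = 0.00223). Rps18, a small subunit protein whose message is often used as a reference in quantitative PCR, read 11.26, 11.25 and 11.20 with control plasma. After NHD it read 10.69 to 10.88 (median 10.81), and it fell by 0.44 ± 0.09 (adjusted p = 0.00227). In both Rpl19 and Rps18, the control arrays lay close together and above every after NHD array.

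Rps7, a small subunit protein altered in some inherited anaemias, fell by 0.33 ± 0.09, from 12.33 to 12.38 with control plasma to 11.97 to 12.11 after NHD. Rps3a fell by 0.33 ± 0.10 and Rpl10a by 0.32 ± 0.10, again without overlap. Rps6, the ribosomal protein that S6 kinases phosphorylate downstream of mTOR, read 12.99, 12.99 and 12.97 with control plasma and 12.59 to 12.79 (median 12.70) after NHD. It fell by 0.28 ± 0.09 (adjusted p = 0.021). Rplp1 of the stalk that recruits elongation factors fell by 0.27 ± 0.09, from 11.36 to 11.42 with control plasma to 11.08 to 11.18 after NHD. The other stalk proteins, Rplp0 (-0.09 ± 0.08) and Rplp2 (0.03 ± 0.07), did not pass. Rpl8, Rpl23, Rpl23a, Rpl27 and Rpl41 completed the genes that fell, with differences between -0.27 and -0.20, and Rpl8 lay closest to the threshold (adjusted p = 0.05).

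By subunit, 5 of the 42 large subunit genes rose and 9 fell, and 4 of the 26 small subunit genes fell. Rps18, Rps3a, Rps7 and Rps6 were those 4. Whether the subunits differ was not tested. Without regard to the test, 49 of the 68 members (72.1%) had a lower mean after NHD than with control plasma, against 57.6% of all genes. After NHD arrays lay entirely below the control arrays in 32 members (18.9% of all probe sets and 2837 of the 14506 genes did so). They lay entirely above them in 10 (14.5% of all probe sets and 2684 of the genes). Members share the same arrays and are not replicates.

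Genes used as references or known for tasks outside the ribosome are named here whatever their values. Rpl5 (-0.02 ± 0.09) and Rpl11 (-0.11 ± 0.07), which bind 5S ribosomal RNA and can hold back Mdm2, did not pass after NHD against control plasma. Neither did Rpl13a (-0.08 ± 0.10), Rpl32 (0.18 ± 0.09), Rpl10 (0.05 ± 0.11), the protein that completes the large subunit, Rpsa (0.01 ± 0.12), also known as a laminin receptor, or Rps4x (-0.05 ± 0.07). Rpl32, Rpl10 and Rps4x are among the genes near the top of the scale.

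**Figure D2:**
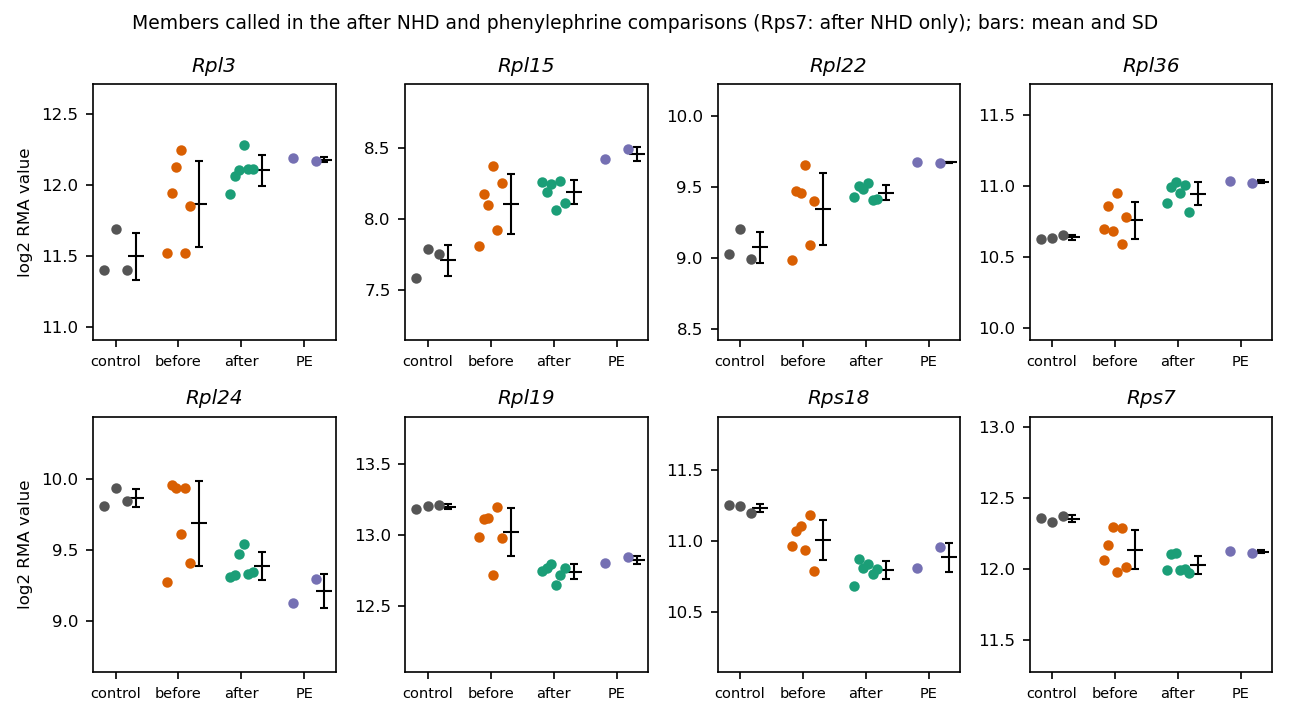
Points are single arrays (log2 RMA value; every panel spans 1.8 log2 units), with the mean and SD beside them, for control plasma (n = 3), before NHD (n = 6), after NHD (n = 6) and phenylephrine (PE, n = 2). Rpl3, Rpl15, Rpl22 and Rpl36 lie higher, and Rpl24, Rpl19, Rps18 and Rps7 lower, on all after NHD and phenylephrine arrays than on the control arrays, and the before NHD arrays are more scattered.

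The count depended on each control array. Leaving out control replicate 1, 2 or 3 left 5, 9 or 6 members called, and Rpl3, Rpl15, Rpl19, Rps18 and Rps7 were called in each of these fits. When the fit also held every array's SD, 3 members passed, Rpl19, Rps18 and Rps6, all lower. In that fit the rises were smaller, with 0.37 for Rpl3, 0.30 for Rpl15, 0.18 for Rpl22, 0.14 for Rpl35a and 0.26 for Rpl36. The falls of Rpl24 (-0.52), Rpl19 (-0.43), Rps18 (-0.39), Rps3a (-0.34), Rps7 (-0.29) and Rpl10a (-0.29) stayed about as large. Array SD itself went with the groups, at 2.245 to 2.317 with control plasma and 2.316 to 2.340 after NHD. Its term and the plasma therefore cannot be fully told apart. With arrays centred on their medians 5 rose and 8 fell. The sign of each of the 18 differences was the same in all 30 alternatives tried, but 0 of the 18 kept their call in all of them. In all 18 the groups did not overlap, so leaving out arrays could not have turned a sign. An alternative added once the values were known, without before NHD replicates 1 and 5, gave 24 members.

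Other probe sets of the same genes were read as a further measure. Of the 18 called genes, 12 had others, 38 in all. All 38 moved in the same direction as the chosen one, and 32 were called. All others of Rpl36 (9), Rpl35a (8) and Rps18 (2) were called, but 0 of the 5 others of Rpl23a and 1 of the 2 of Rpl41. Some genes that did not pass had other probe sets that did: Rpl13, whose chosen one differed by -0.33 (adjusted p = 0.0545), had 6 of 6 others called lower, and Rps12 had 3 of 3. For Rpl31, 1 other probe set was called higher (0.58 ± 0.14) while the chosen one differed by -0.02 ± 0.08. Ribosomal protein genes have many near-identical processed copies in the genome, and Rpl21 alone has 21 probe sets here, so that such probe sets may read the same message and cannot be counted as independent. Counted over all 249, 25 were called higher and 42 lower (26.9%).

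Plasma taken before NHD was compared with the same 3 control arrays. No member passed (limma; 4.93% of all probe sets did, 2.88% higher and 2.05% lower), and 14 had an unadjusted p under 0.05 (20.6%; 25.1% of all probe sets). Rpl15 came closest. It read 7.81, 8.17, 8.10, 8.37, 7.92 and 8.26 on before NHD replicates 1 to 6, all above the highest control array at 7.79, a difference of 0.40 ± 0.11 (adjusted p = 0.052). Rpl23a (-0.21 ± 0.07), Rplp1 (-0.24 ± 0.09), Rps3a (-0.24 ± 0.10) and Rps7 (-0.22 ± 0.09) followed. Of these, Rpl23a, Rplp1 and Rps7 had no overlap with the control arrays. In all, 1 member lay entirely above the control arrays (3.49% of all probe sets did) and 9 lay entirely below (4.91%).

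The scatter of the before NHD arrays was uneven. Rpl3 read 11.52, 11.95, 12.13, 12.25, 11.52 and 11.85 on replicates 1 to 6. Replicates 1 and 5 lay in the range of the control arrays and the other 4 above it. In Rpl22, replicates 1 and 5 read 8.99 and 9.09, below the highest control array at 9.20, and the others read 9.41 to 9.66, above it. Replicate 4 was the highest before NHD array for Rpl3, Rpl15, Rpl22, Rpl35a and Rpl36. Without replicate 1, the median difference of the members from control plasma moved from -0.104 to -0.054 and 1 member passed, Rpl15. Without replicate 5, 3 passed, Rpl15 and Rpl3 upward and Rplp1 downward. Without both, Rpl15, Rpl3, Rpl22 and Rps24 were called higher and none lower.

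The test of after against before NHD plasma is also the test of whether the responses to the plasmas differed. No member passed (limma; 0.397% of all probe sets did, 0.288% higher and 0.11% lower), and 9 had an unadjusted p under 0.05 (13.2%; 18.5% of all probe sets). Rpl19 had the smallest p, with before NHD arrays at 12.72 to 13.20 (median 13.05) against 12.65 to 12.80 after NHD. Only before NHD replicate 4, at 12.72, lay within the after NHD range, and the difference was -0.28 ± 0.08 (adjusted p = 0.0845). Rps18 (-0.21 ± 0.07), Rpl35a (0.25 ± 0.09), Rps15 (-0.16 ± 0.06) and Rpl36 (0.19 ± 0.07) came next, with adjusted p from 0.132 to 0.17. Rps15 was the 1 member whose groups did not overlap, lower after NHD (0.349% of all probe sets were lower without overlap). The median member difference was -0.024, against -0.005 for all genes, and single differences ran from -0.30 for Rpl24 to 0.25 for Rpl35a. Leaving out before NHD replicate 4 gave 2 calls, Rpl19 lower and Rpl35a higher, and leaving out replicate 6 gave Rpl19 and Rps18, both lower.

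The phenylephrine arrays were set against the same control arrays. Of the 68 members 7 passed, which is 10.3% against 18.7% of all probe sets and 23.6% of all genes. Called higher were 4, with a background of 8.54%, and called lower 3, with a background of 10.2%. Rpl15 read 8.42 and 8.49 with phenylephrine and rose by 0.75 ± 0.14 log2 units (adjusted p = 0.0027), a factor of 1.68. Rpl3 read 12.19 and 12.17 and rose by 0.68 ± 0.19, and Rpl22 read 9.68 and 9.67 and rose by 0.60 ± 0.16. Rpl36 read 11.04 and 11.02 and rose by 0.39 ± 0.11. All phenylephrine values of these genes lay above all control values given above. With so few arrays this is common. Phenylephrine arrays lay entirely above the control arrays in 23 of the 68 members (24.6% of all probe sets, 4340 of the 14506 genes). They lay entirely below in 29 (32.3% of all probe sets, 4897 of the genes).

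The genes that fell with phenylephrine were Rpl24, Rpl19 and Rps18. Rpl24 read 9.12 and 9.29 and fell by 0.66 ± 0.18 (adjusted p = 0.0193), though its other probe set had a difference of only -0.19 and was not called. Rpl19 read 12.80 and 12.84 and fell by 0.38 ± 0.12. Rps18 read 10.81 and 10.96 and fell by 0.35 ± 0.12 (adjusted p = 0.0445). Its other probe sets did not pass (adjusted p = 0.0594 and 0.0787), and its call was lost in 14 of the 30 alternatives, among them the fits without any 1 control array. All 7 genes had been called in the same direction after NHD, but both comparisons use the same 3 control arrays. Side by side, the difference with phenylephrine and after NHD was 0.75 and 0.48 for Rpl15, 0.68 and 0.60 for Rpl3, 0.60 and 0.39 for Rpl22, and 0.39 and 0.31 for Rpl36. It was -0.66 and -0.48 for Rpl24 (-0.19 and -0.41 on its other probe set), -0.38 and -0.46 for Rpl19, and -0.35 and -0.44 for Rps18. Whether the sizes differ was not tested.

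The remaining members had differences with phenylephrine from -0.31 for Rplp1 to 0.46 for Rps23, which did not pass, and the median over all 68 was -0.013, against -0.061 for all genes. Rps6 had a difference of -0.24 ± 0.11 (adjusted p = 0.139) and Rpl13a 0.16 ± 0.13. Besides Rpl10, some members that did not pass had another probe set that did. These were called higher for Rpl5 (0.409 ± 0.132, adjusted p = 0.04) and Rpl31 (0.764 ± 0.185, adjusted p = 0.00963), and lower for Rpl27 (-0.352 ± 0.117, adjusted p = 0.0452). The chosen ones differed by 0.217, 0.075 and -0.178. With 2 arrays the group rests largely on the spread of the others. Without either phenylephrine array 1 member was called, Rpl15, without control replicate 1 there were 3 and without control replicate 3 there were 2. Leaving out before NHD replicate 1 raised the count to 11, and with arrays centred on their medians 3 were higher and 5 lower.

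**Figure D3:**
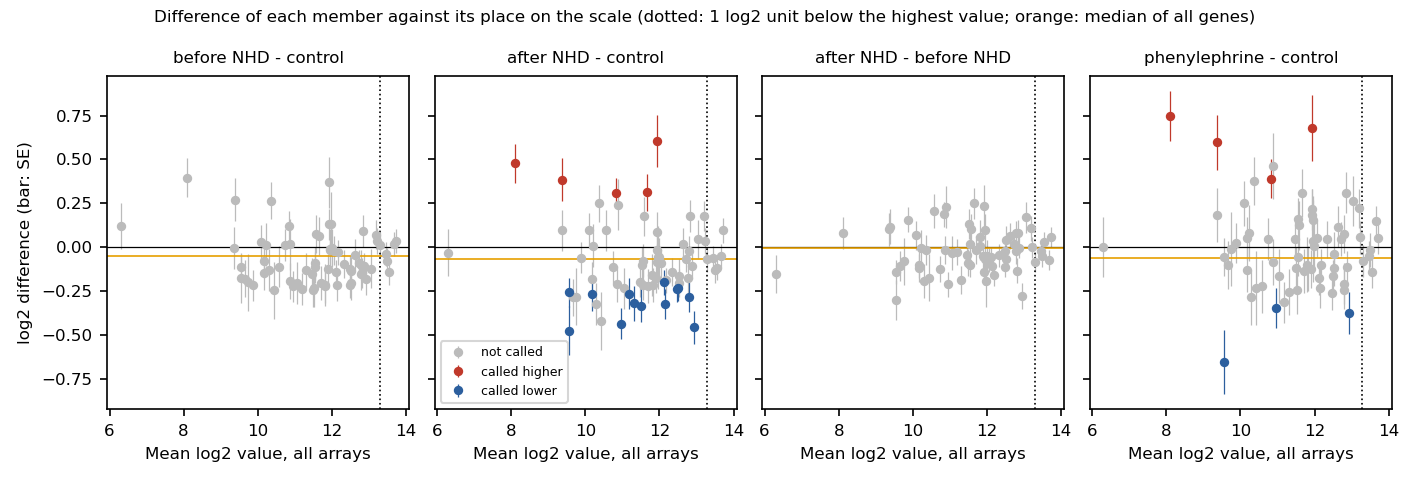
Each point is 1 of the 68 genes: mean log2 value over all arrays (x) against the log2 difference between groups with its SE (y), red where called higher, blue where called lower and grey where not called, with the median of all genes as an orange line. No gene right of the dotted line (1 log2 unit below the highest value) is called, and the before NHD against control and after against before NHD panels hold no call.

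Genes that make and serve the ribosome were read from lists of pathway genes. Of all 14506 genes, 16.7% were called higher and 16.3% lower after NHD against control plasma, and 11.7% and 11.9% with phenylephrine, and the counts of each list are to be read against these shares. Of 50 measured ribosome assembly factors, 12 fell (24.0%) and 2 rose (4.0%) after NHD against control plasma (median -0.32, all genes -0.066). Both directions together are 28.0% against 33.0% of all genes. With phenylephrine 14 fell (28.0%, all genes 11.9%) and 0 rose (all genes 11.7%), with a median of -0.71 (all genes -0.061). Both directions together are 28.0% against 23.6%. With phenylephrine, Dcaf13 (-1.06 ± 0.16) and Utp4 (-1.14 ± 0.25) of small subunit assembly fell, as did Riok2 (-1.28 ± 0.25), a kinase that matures the small subunit, and Nmd3 (-0.95 ± 0.20), which exports the large one. After NHD, Dcaf13 fell by 0.56 ± 0.13 and Wdr12, of large subunit assembly, by 1.07 ± 0.28. None of the 50 passed before NHD against control plasma or after against before NHD.

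Among 12 measured genes of RNA polymerase I, which makes ribosomal RNA, and its factors, 3 rose and 2 fell after NHD. Polr1c, a subunit shared with RNA polymerase III, rose by 1.27 ± 0.26 and the initiation factor Taf1a fell by 0.65 ± 0.18. With phenylephrine Polr1e alone passed (-1.40 ± 0.42). Of 13 elongation and nascent chain factors, Pabpc4 (0.81 ± 0.18) and Eef1g (0.35 ± 0.11) rose after NHD, and Eef1b2 (-0.47 ± 0.14) and Tpt1 (-0.29 ± 0.10), itself a TOP message, fell. With phenylephrine Pabpc4 (adjusted p = 0.00736) and Eef2 (0.41 ± 0.11) rose. Of 4 measured proteins of the ribosome or its precursors outside the naming rule, Rack1 (-0.23 ± 0.08) and Rsl24d1 (-0.61 ± 0.18) fell after NHD and Rsl24d1 also fell with phenylephrine.

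Of 18 signalling genes, 5 rose (27.8%) and 3 fell (16.7%) after NHD, with a median of 0.03. Akt1, a kinase upstream of mTOR, rose by 0.94 ± 0.17 after NHD, 0.69 ± 0.17 before NHD and 1.02 ± 0.23 with phenylephrine. Rptor, the mTOR partner that binds substrates, rose by 1.46 ± 0.28 after NHD, and Eif4ebp1, a brake on translation initiation, by 0.76 ± 0.18, while Rps6kb2, an S6 kinase, fell by 0.66 ± 0.16. Among 8 genes of ribosome rescue, Pelo, which frees stalled ribosomes, fell in each comparison with control plasma: -1.01 ± 0.22 before NHD, -1.49 ± 0.22 after NHD and -1.32 ± 0.28 with phenylephrine. Nemf, which marks stalled chains, rose before NHD (0.58 ± 0.13) and after NHD (0.65 ± 0.13). No gene of these lists passed in after against before NHD. Protein genes of the mitochondrial ribosome, also 68 in number, had 37 higher (54.4%) and 7 lower (10.3%) after NHD against control plasma (median 0.41), beside 5 and 13 for the cytosolic set. Before NHD against control plasma the counts were 14 and 0, beside 0 and 0, with 5.84% of all genes called, and with phenylephrine 15 and 14, beside 4 and 3. The difference between the sets was not tested.

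**Figure D4:**
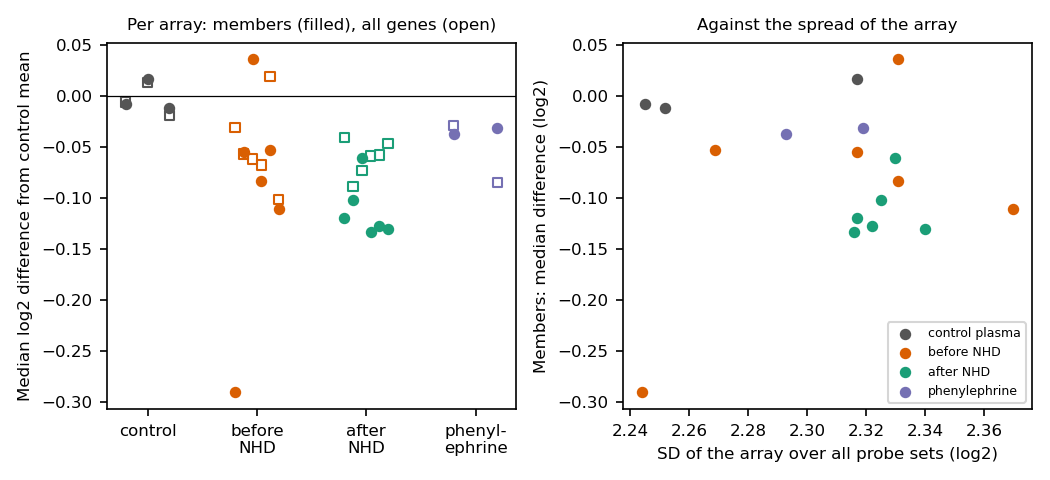
Left: median log2 difference of an array from the control mean, over the 68 members (filled) and over all genes (open), by group. Right: the members' median against the SD of all values of the array. After NHD arrays lie between -0.134 and -0.061 for the members, and before NHD replicate 1 lies alone at -0.291.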

How the data were processed

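The deposited values are log2 expression values; per the submitters' processing notes, the authors used RMA, which gives the arrays a common distribution (quantile normalization) and can remove shifts that most genes share. Its version is not given here. That the scale is log2 was read off the range of values, 1.28 to 14.29. In the platform annotation 15310 probe sets had a single symbol, 323 had several and 13581 were unnamed here. Current symbols were looked up by Entrez number in the RefSeq table (assembly GRCr8), which changed 0 of the members' symbols.

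The test was limma 3.58.1 in R 4.3.3 (eBayes on a linear model of the 4 groups) on 29214 probe sets and 17 arrays (13 residual and 3.32 prior degrees of freedom). P-values are two-sided and adjusted by Benjamini-Hochberg over all probe sets, with a threshold of 0.05. Members' counts are set beside the share of all probe sets called. The members and lists were chosen with earlier results of these data known. Named genes were up to 6 largest increases and 6 largest decreases called per comparison, the 5 smallest p where fewer than 5 passed, the 4 brightest and 4 dimmest members, up to 4 genes per list, and a fixed list of reference members. Rps19, Rps21, Rps23, Rps24, Rpl13, Rps12, Rpl31, Rpl36a, Rpl22l1 and the smaller decreases after NHD were named after their values were seen. Tested on simulated data of this layout, the procedure recovered 71% of probe sets changed by 1 log2 unit and 25% of those changed by 0.5 for after NHD against control plasma, and 49% and 6% for phenylephrine. Far fewer probe sets were changed there than were called here in these comparisons, and the noise was that of all probe sets. The members varied less (median SD after NHD 0.0641, against 0.161 for all genes), so these rates are not those of the members.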

Additional observations from a re-analysis of the deposited data

Results flagged for a closer look

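Among 29 named members, the before and after NHD groups of 6 were searched with Dixon's criterion for an array set off from the rest, 58 groups in all, and chance marks about 1 in 20 groups. After NHD replicate 4 was set off in 2 genes. Rpl10a read 11.32 there, the highest after NHD value, with the next at 11.17 and the lowest at 11.10, and it stayed below the lowest control array. Rps29 read 13.72 there, the lowest, with the next at 13.76 and the highest at 13.78, near the top of the scale.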

How the results depend on the processing

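The number of arrays, the scatter of the before NHD group and the top of the scale limit what can be seen. In before NHD against control plasma, where 0 members passed, the count was 1 on the brighter probe sets, with 1 probe set per gene, with a trended robust prior and with the lowest-mean probe set, 2 with the replicate block and over all probe sets of the members, 4 without before NHD replicates 1 and 5, 8 with array weights, and 0 to 3 with 1 array left out. In after NHD against control plasma (18) it was 37 with array weights, 3 when the fit held every array's SD (median of the members -0.173), 1 with a minimum fold of 1.5, 67 over all 249 probe sets, and 5 to 20 with 1 array left out. In after against before NHD (0) it was 4 with array weights, 2 without the samples numbered 4, and 0 to 2 with 1 array left out. With phenylephrine (7) it was 22 with array weights, 4 with a minimum fold of 1.5, 13 without before NHD replicates 1 and 5, 21 over all probe sets, and 1 to 11 with 1 array left out. The replicate block left the other counts at 17, 0 and 8. The labels do not say that numbers pair samples, and the deviations of same-numbered before and after NHD samples correlated at -0.025 to 0.599. Without before NHD replicates 1 and 5, and over all probe sets, are settings chosen after the data were seen. Within 0.5 log2 units of the highest value lay 0.173% of member values. None of the 25 called differences of members turned its sign under any alternative. Their groups did not overlap, so leaving out arrays could not turn them. Of the 247 differences that were not called, 75 turned under at least 1 alternative, Rpl5, Rpl10 and Rpsa after NHD among them.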

Other observations

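Some members were singled out, after their values were seen, for low or high values in a few arrays of a group. Rps19, a small subunit protein, read 10.03 in before NHD replicate 4 and 9.84 in after NHD replicate 4, the lowest of each group, with the other before NHD arrays at 10.14 to 10.84 and control arrays at 10.67 to 10.71. Rps21 read 9.26 and 9.19 in the same samples, with control arrays at 9.85 to 9.97. In all, the samples numbered 4 were the lowest of both groups in 4 members (5.88%) and in 1741 of the 14506 genes, and the highest of both in 11 members (16.2%; 14.5% of all genes). Rpl36a read 12.80 in before NHD replicate 2 and 12.36 in replicate 6, while the other before NHD arrays lay at 11.64 to 11.92 and the control arrays at 11.89 to 11.99.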
